A study of Mus musculus with 6 samples.

Results

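Immediate early genes and Myc were followed through 6 mouse RNA sequencing libraries: Fos, Fosb, Jun, Junb, Egr1, Ier2, Ier3, Atf3, Phlda1 and Myc. These 10 genes were taken by symbol, with no threshold on their values, and all 10 are among the 23889 gene symbols listed in every table. The androgenetic haploid embryonic stem cells (AG-haESCs) came from embryos made by putting a sperm head into an oocyte whose own spindle had been taken out. There were 3 lines, A129-2, AOS-14 and AOS-16, with 1 library each, and the strain was an F1 hybrid, C57BL/6 X DBA/2. They grew on feeder cells in knockout serum replacement medium with 2i (inhibitors of MEK and of GSK3), and haploid cells in G0/G1 were collected by sorting after a live DNA stain. Round sperm had 1 library of the same strain, whose label repeats the culture and sorting text of the AG-haESCs. ESC XX had 2 libraries of embryonic stem cells from an Oct-GFP (C57) background, kept in fetal bovine serum with LIF and 2i and collected after a feeder-removal step with no sort named. Between AG-haESCs and ESC XX the strain, the serum and the sort therefore differ together with ploidy. X chromosome number differs too (XX by the ESC XX label), and androgenetic origin is named for the AG-haESCs alone. The parts of all these cannot be told apart. All libraries were made from mRNA with a KAPA stranded kit. Nothing in the labels says that the ESC XX libraries were separate cultures.

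Immediate early genes are switched on within minutes of a growth factor or stress signal, without new protein being made first. Signals that pass through MEK and ERK reach the serum response factor SRF and its ternary complex partners at promoters such as those of Fos and Egr1, while the CREB and ATF factors act on cyclic AMP response elements. FOS and JUN family proteins pair through leucine zippers to form the transcription factor AP-1. MYC, a growth-promoting factor that pairs with MAX, is itself an early target of growth signals, and in mouse embryonic stem cells MYCN can serve in its place.

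The 4 AP-1 subunit genes differed in how far they moved, and their proximal promoters are shown because these letters are where signal-regulated factors are known to bind. RefSeq promoter windows (GRCm38.p6, 250 bases before to 50 after the start) were found for 6 members, namely Fos, Fosb, Jun, Junb, Ier3 and Atf3. No entry was found for Egr1, Ier2, Phlda1 and Myc. Each sequence below runs from base -130 to base -1 relative to the transcription start, with TGACG (the core of a cyclic AMP response element) and TGACATCA (a variant of that element) in capitals.
Fos, chr12:85473760-85473889, plus strand: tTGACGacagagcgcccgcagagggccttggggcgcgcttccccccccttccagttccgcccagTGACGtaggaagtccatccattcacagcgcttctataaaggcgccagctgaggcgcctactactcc
Fosb, chr7:19310046-19310175, minus strand: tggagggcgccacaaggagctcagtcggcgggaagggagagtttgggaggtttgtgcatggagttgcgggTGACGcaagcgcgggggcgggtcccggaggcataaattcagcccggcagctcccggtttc
Jun, chr4:95052223-95052352, minus strand: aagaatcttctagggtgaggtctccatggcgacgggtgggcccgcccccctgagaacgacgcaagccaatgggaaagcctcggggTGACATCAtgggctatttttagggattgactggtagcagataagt
Junb, chr8:84978749-84978878, minus strand: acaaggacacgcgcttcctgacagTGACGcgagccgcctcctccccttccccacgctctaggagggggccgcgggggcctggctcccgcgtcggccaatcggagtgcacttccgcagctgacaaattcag

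On either strand of the 300-base windows, TGACG was present in Fos (at -129 and -66), Fosb (at -60), Junb (at -106) and Atf3 (at -7, reverse strand). It occurs in 20.8% of all 32851 promoters in the same table, so its presence in 4 of 6 members is a description only. The longer TGACATCA was present in Jun alone of the 6, at -45, and in 3.62% of all promoters. The AP-1 consensus TGANTCA was in none of the 6 windows and in 7.81% of all promoters. The CArG box, the element bound by SRF, was also in none of the 6 and in 1.63% of all. These motifs were searched only in the 300-base window, and a site further upstream would not be seen.

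All 10 genes lay lowest in round sperm when each library was scaled to the same total (TPM, a level per transcript length and per fixed library total). Summed over the 10 genes, the level was 7.66 TPM in round sperm, 477 in A129-2, 258 in AOS-14, 349.6 in AOS-16, and 997 and 962 in the ESC XX libraries. The sum was thus lowest in round sperm and higher in both ESC XX libraries than in any AG-haESC line. The most abundant member also differed: it was Egr1 in ESC XX (395 and 380.4 TPM), Ier2 in A129-2 (241 TPM), Ier3 in AOS-14 and AOS-16 (76.3 and 120.1 TPM), and Junb, at 2.53 TPM, in round sperm.

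**Figure D1:**
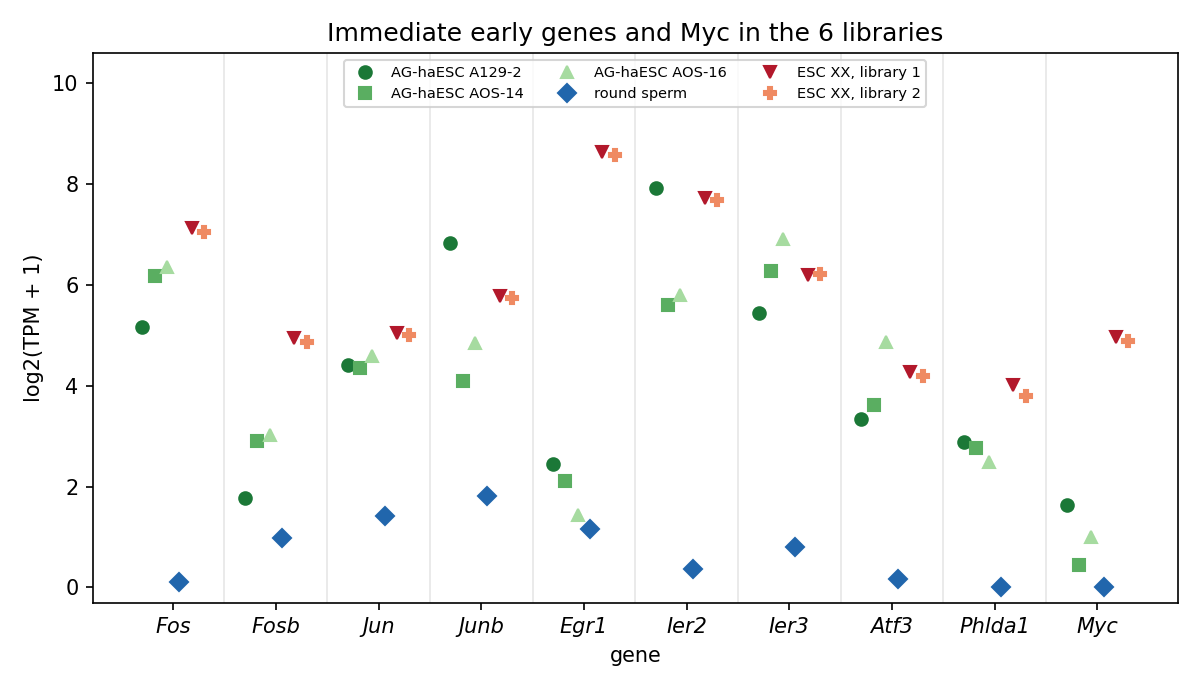
Level of each gene in each library as log2(TPM + 1), 1 point per library. Round sperm is the lowest point for all 10 genes, and Egr1 and Myc show the widest gaps between the 3 AG-haESC lines and the 2 ESC XX libraries.

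The tables hold no read counts. Depth, estimated from the steps between low values, in units of 1e6 fragments came to about 8.98 in A129-2, 10.48 in AOS-16 and 10.82 in round sperm, and to between 16.74 and 19.7 in the other 3 libraries. Eef1a1, a translation elongation factor, is listed at 0 in all 3 AG-haESC libraries and at 6397 FPKM in an ESC XX library, so a listed 0 can stand for an estimate that failed. AOS-14 and round sperm stand apart in that genes under 200 nt take 12.7% and 6.26% of their FPKM totals, against at most 0.111% elsewhere. The cell labels matched the sums of their markers: the 8 pluripotent cell markers summed to between 7558 and 8395 TPM in the 5 stem cell libraries and to 203 TPM in round sperm, and the 8 spermatid markers to 31371 TPM in round sperm and at most 2.76 elsewhere. Klf4, a pluripotent cell marker, went the other way. It was at 176 TPM in round sperm, most of the sum there, and at 91.2 to 164 TPM in the stem cell libraries. The ESC XX libraries had a median absolute log2 difference of 0.06 between them, against 0.28 to 0.40 between AG-haESC lines, and their spread may be technical.

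AG-haESCs were first compared with round sperm, with which they share a table. Of the 10 genes 6 rose and none fell: Fos and Jun, which form AP-1, and Ier2, Ier3, Atf3 and Phlda1. Over all 15938 genes tested with limma, 61.9% were called (adjusted p under 0.05 and a log2 difference of at least 1), 22.8% as higher and 39.1% as lower in AG-haESCs. The median log2 difference of the 10 genes was 2.27, against -0.49 for all genes. For 12 feeder fibroblast markers the median was 1.48. Their summed level was 12.9 TPM in round sperm and 417 to 685 TPM in the lines, and their part was not tested. The p-values measure only the spread among the 3 lines (2 residual degrees of freedom), and the lone round sperm library is assumed to vary as they do. In whole-population RNA, fewer cells with a transcript and less of it per cell cannot be told apart.

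Fos, the AP-1 subunit that is the classic serum-induced gene, had 17.8 FPKM in line A129-2, 50.25 in line AOS-14 and 44.5 in line AOS-16, and 0.0970 in round sperm. All 3 lines were far above round sperm, where the value corresponds to about 2 fragments. On the log2(FPKM + 1) scale Fos rose by 5.00 ± 0.78 (SE, n = 3 and 1, limma adjusted p = 0.0191). Fosb, its close relative, was at 1.24, 4.59 and 3.90 FPKM in the lines (in the same order) and 1.21 in round sperm, so that A129-2 and round sperm were nearly level, and it was not called (0.84 ± 0.70, adjusted p = 0.367). Jun, the partner subunit, was at 10.3, 13.7 and 12.6 FPKM against 2.09. The lines lay close together and all above round sperm, and Jun rose by 2.09 ± 0.21 (adjusted p = 0.00759). Junb, a JUN relative that often opposes it, was at 57.9, 11.4 and 15.1 FPKM against 3.14, with A129-2 well above the AOS lines. It was not called (2.46 ± 1.18, adjusted p = 0.170).

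Egr1, the zinc finger factor induced through SRF and ERK, had FPKM values of 2.26, 2.36 and 0.937 in the lines, again in that order, and 1.53 in round sperm. The groups overlapped, since round sperm lay above AOS-16, and the log2 difference was 0.13 ± 0.44 (adjusted p = 0.811). It ranged from -0.01 to 0.84 over the alternative settings. Ier2, a nuclear immediate early protein, was at 122.9, 33.9 and 29.99 FPKM against 0.348, the latter about 5 fragments. All 3 lines were high, A129-2 the most, and Ier2 rose by 5.25 ± 1.09 (adjusted p = 0.0341). Ier3, which modulates ERK signalling and cell survival, was at 21.8, 54.0 and 65.6 FPKM against 0.931, and rose by 4.50 ± 0.82 (adjusted p = 0.0257). Here A129-2 was the lowest line.

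Atf3, a stress-induced factor of the ATF family, was at 4.66, 7.97 and 15.3 FPKM against 0.155, and rose by 3.02 ± 0.76 (adjusted p = 0.0499, at the edge of the threshold). It was not called with no filter on low values (adjusted p = 0.0595) or after quantile normalization (adjusted p = 0.0540). Phlda1, a pleckstrin homology-like protein induced by growth factors, was at 3.25, 4.13 and 2.53 FPKM and is listed at 0 in round sperm. It was called higher (adjusted p = 0.0129). Myc was at 1.08, 0.253 and 0.547 FPKM, about 21, 11 and 13 fragments if the longest annotated transcript is used, and is listed at 0 in round sperm. It was not called (adjusted p = 0.204). The listed Myc values were low in both groups at this depth. A listed 0, as for Phlda1 and Myc in round sperm, may be an estimate that failed.

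Jun was called in each of the 9 alternative fits. Without AOS-14 or without AOS-16, 2 members were called, Jun and Phlda1. Fos then had an adjusted p of 0.0777 without AOS-14 and 0.0789 without AOS-16, Ier2 of 0.109 and 0.0869, Ier3 of 0.108 and 0.0798, and Atf3 of 0.161 and 0.0642. Without A129-2, 6 members were called: Fosb and Junb were added (adjusted p = 0.0337 and 0.0472), and Atf3 and Phlda1 were lost (adjusted p = 0.0572 and 0.0582). With all 4 libraries rescaled to the same total the all-gene median went from -0.49 to 0.40, and the 6 called members had positive differences in every fit that tested them (Phlda1 was not tested with a filter at an FPKM of 5).

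**Figure D2:**
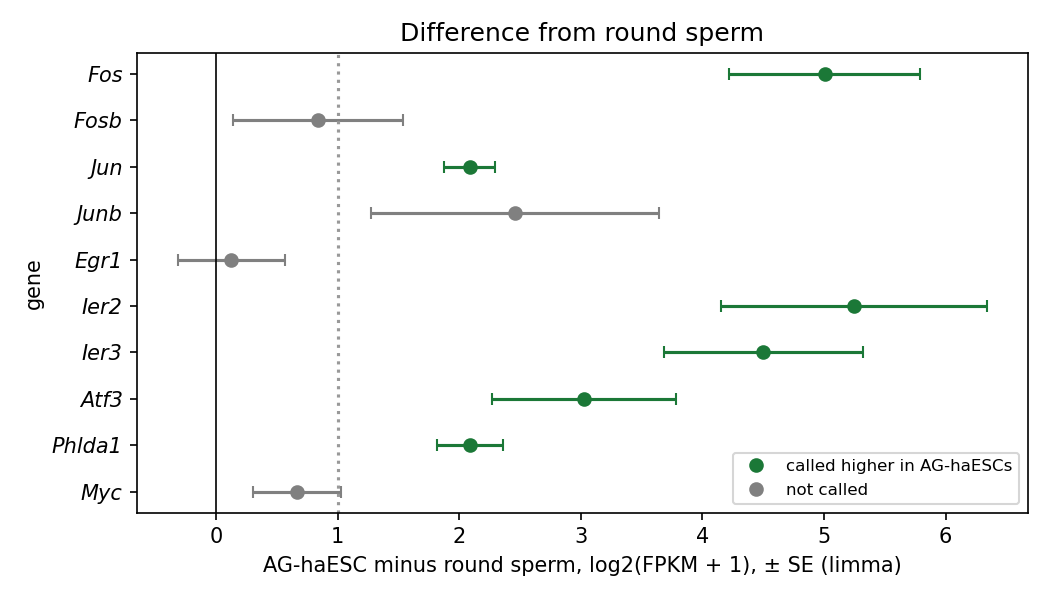
Difference between the mean of the 3 AG-haESC lines and the round sperm library on the log2(FPKM + 1) scale, 1 point per gene with its limma standard error as bars and a dotted line at 1. Fos, Ier2 and Ier3 lie above 4 and Egr1 at 0.13, while the sizes for Phlda1 and Myc (listed at 0 in round sperm) and for Fos, Ier2 and Atf3 (about 2, 5 and 3 fragments there) depend on the added 1.

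Other genes of these pathways were taken from lists chosen by function, and their counts are read against the 22.8% of all genes that rose and the 39.1% that fell. Of 22 other immediate early genes, 20 were tested, of which 12 rose and 4 fell. Without AOS-14 the counts were 7 and 4, and with short genes left out and the rest rescaled they were 12 and 2. Gadd45b, a growth arrest and DNA damage gene, rose by 6.22 ± 0.39 (limma adjusted p = 0.00315) and Ctgf, a matricellular protein, by 5.50 ± 0.36 (adjusted p = 0.00338). Arc, known as a neuronal immediate early gene, fell by 5.13 ± 0.40 (adjusted p = 0.00472), from 230.4 TPM in round sperm to between 8.15 and 20.002 in the lines. Of 10 AP-1 partners 9 were tested, with 3 higher and 3 lower. None of the 3 lower calls held after rescaling to the same total (4 higher and 0 lower), and without AOS-14 or without AOS-16 there was 1 in each direction. The small MAF proteins have no activation domain; of these Mafg rose by 4.27 ± 0.24 (adjusted p = 0.00254) and Maff by 3.29 ± 0.72 (adjusted p = 0.0382). Jdp2, a repressor of AP-1, rose by 4.19 ± 0.80 (adjusted p = 0.0285). Maff is also counted in the list of other immediate early genes. Maff and Jdp2 lost their calls without AOS-14 (adjusted p = 0.138 and 0.0997) or without AOS-16 (adjusted p = 0.100 and 0.102).

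Upstream of these genes, 3 of 13 SRF and CREB pathway genes rose and 5 fell, shares close to those of all genes. After rescaling to the same total the balance turned to 5 higher and 3 lower, and without AOS-14 the counts were 2 and 3. Crem, the CREB relative that drives the spermatid programme, fell by 5.27 ± 0.15 (adjusted p = 0.000638), and Mkl1, an actin-regulated SRF cofactor, fell by 3.20 ± 0.20 (adjusted p = 0.00301). Elk1, a ternary complex partner of SRF, rose by 3.59 ± 0.13 (adjusted p = 0.00112). Beside Atf3, 5 of 10 genes of the ATF4 stress pathway rose and none fell. This count changed with the lines kept, as it was 1 (Ppp1r15a) without AOS-14 and 3, with 1 gene lower, without AOS-16. The sizes moved less: the median of the 10 was 1.98 without AOS-14 and 1.79 without AOS-16, against 2.06 with all lines. Ddit4, an inhibitor of mTORC1, rose by 6.30 ± 1.25 (adjusted p = 0.0307), Ppp1r15a, a phosphatase subunit that restarts translation, by 5.02 ± 0.41 (adjusted p = 0.00520), and Trib3, a pseudokinase, by 4.55 ± 1.00 (adjusted p = 0.0380). With AOS-14 left out Ddit4 was not called (adjusted p = 0.123), nor with AOS-16 left out (adjusted p = 0.0525), and Trib3 was not called without A129-2 (adjusted p = 0.0620) or AOS-14 (adjusted p = 0.132).

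Around Myc, 5 of 12 genes of the MYC network rose and 3 fell. Mycn rose by 4.81 ± 0.17 (adjusted p = 0.00100), whereas Mxd4 and Mxd1, which compete with MYC for MAX, fell by 4.75 ± 0.56 (adjusted p = 0.0107) and fell by 4.45 ± 0.08 (adjusted p = 0.000269). Mxd4 lost its call without AOS-16 (adjusted p = 0.0578). Of 18 known MYC targets 11 rose and none fell, led by the transferrin receptor Tfrc (6.16 ± 0.44, adjusted p = 0.00406) and the nucleolar proteins Ncl (5.74 ± 0.11, adjusted p = 0.000300) and Nop56 (5.57 ± 0.30, adjusted p = 0.00236). The medians were 2.71 for other immediate early genes, 0.85 for AP-1 partners, -0.01 for SRF and CREB genes, 2.06 for ATF4 genes, 1.02 for the MYC network and 2.40 for MYC targets, against -0.49 for all genes.

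Against ESC XX, 5 of the 10 genes were lower in AG-haESCs and none was higher. They were Egr1, Myc, Fosb, Phlda1 and Fos. A gene counted as lower or higher when the difference in group means on the log2(TPM + 1) scale reached 1 after the median difference of all genes was removed (-0.10), and the groups' libraries did not overlap. By this rule 7.82% of 14251 genes were lower and 6.93% higher. The median of the 10 genes was -1.09, against 0 for all genes. The 2 groups come from tables that were scaled separately, so no test was run.

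The Egr1 level was 4.44 TPM for A129-2, 3.33 for AOS-14 and 1.71 for AOS-16, against 395 and 380.4 in ESC XX. Every line was low and both ESC XX libraries were high. The ESC XX mean was 123 times the AG-haESC mean, and 87.3, 116 and 226 times the single lines. The log2 difference was -6.50 ± 0.51 (SD of the 3 lines). Egr2, a relative of Egr1 in the list of other immediate early genes, stood at 0.0258 to 0.154 TPM in the lines and at 8.47 and 7.99 in ESC XX (-2.99 ± 0.09).

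Myc was at 2.12, 0.358 and 1.001 TPM in A129-2, AOS-14 and AOS-16, against 30.4 and 28.6 in ESC XX. All 3 lines were far below, and the ESC XX mean was 25.4 times theirs, with single lines at 13.9, 82.4 and 29.5 times. The log2 difference was -3.80 ± 0.60. With about 11 to 21 Myc fragments per line, the order of the lines rests on few reads. Mycn, the paralog, was level by contrast: 59.1, 45.2 and 47.7 TPM in the lines and 51.6 and 46.96 in ESC XX, a difference of 0.13 ± 0.20. Mycl, the third family member, was at 8.78, 6.83 and 9.18 TPM against 13.8 and 14.4, below both ESC XX libraries in every line but by less than 1 (-0.61 ± 0.20).

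Fosb was at 2.44, 6.49 and 7.14 TPM against 29.8 and 28.1, a difference of -2.23 ± 0.68, with A129-2 the lowest. Fos was at 34.9, 71.0 and 81.4 TPM against 139 and 132, a smaller difference of -1.09 ± 0.64. Both were lower in all 3 lines. The Fos difference rests on A129-2: without that line it was -0.63 and under the bound. In Phlda1, values of 6.39, 5.83 and 4.62 TPM stood against 15.1 and 12.98, a difference of -1.09 ± 0.20 that fell under the bound without AOS-16 (-0.94) or without 1 ESC XX library (-0.98).

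Jun was lower in every line (20.3, 19.3 and 23.0 TPM against 31.9 and 31.1) but by less than the bound, at -0.47 ± 0.13. The other 4 genes overlapped between the groups. Junb was at 113.6, 16.2 and 27.7 TPM against 54.1 and 52.6, with A129-2 above ESC XX and the AOS lines below. Ier2 had the same layout, at 241, 47.9 and 54.9 TPM against 211 and 205. Without A129-2, both Junb (-1.10) and Ier2 (-1.81) met the bounds as lower. Ier3 was at 42.7, 76.3 and 120.1 TPM against 72.7 and 73.4, and Atf3 at 9.16, 11.3 and 28.0 TPM against 18.4 and 17.3, so that in both genes the ESC XX values fell inside the range of the lines.

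**Figure D3:**
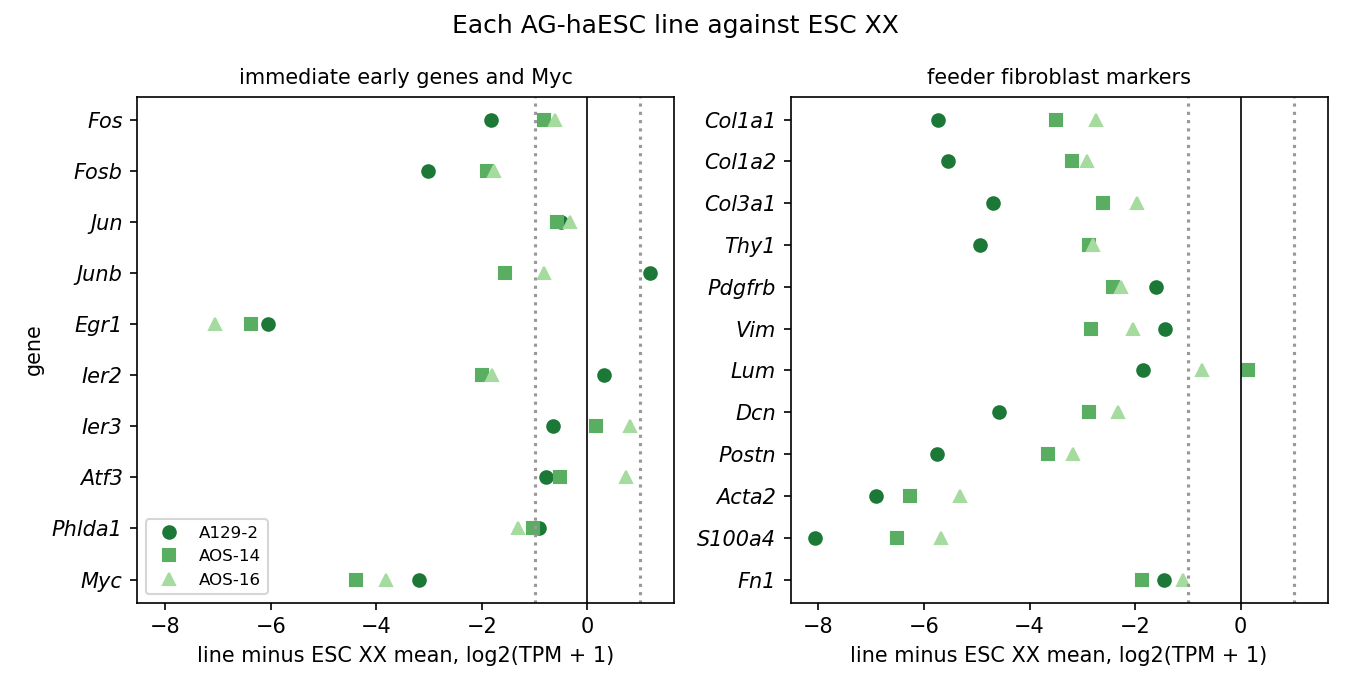
Difference between each AG-haESC line and the mean of the 2 ESC XX libraries on the log2(TPM + 1) scale, for the 10 genes (left) and 12 feeder fibroblast markers (right), with dotted lines at -1 and 1. Egr1 lies between -7.06 and -6.05 and Myc between -4.38 and -3.18 in the 3 lines, and 11 of 12 fibroblast markers were lower.

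Fibroblast markers moved with this comparison. Of 12 feeder fibroblast markers 11 were lower in AG-haESCs and none higher, with a median of -3.40. Their summed level was 417 to 685 TPM in the lines and 3715 and 3732 TPM in ESC XX. S100a4 and Acta2, a calcium-binding protein and smooth muscle actin, had ESC XX means 140.3 and 78.8 times those of the lines. Postn, a matrix protein, was at 0.871, 7.08 and 10.2 TPM in the lines against 102 and 113 in ESC XX. Col1a1, a fibrillar collagen, was at 11.1, 56.4 and 95.4 TPM in A129-2, AOS-14 and AOS-16 against 703.5 and 682 in ESC XX, and the ESC XX mean was 12.8 times the mean of the lines. S100a4 and Lum are listed at 0 in A129-2. The pluripotent cell markers did not move in the same way, as none of 8 met the bounds (median -0.17). Without A129-2, 1 of the 8 did, namely Zfp42 as lower (-1.96). The part of fibroblast RNA, and of the serum that ESC XX alone received, in the differences of Egr1, Myc, Fosb, Phlda1 and Fos was not tested.

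Among the pathway lists, other immediate early genes were split: 5 of 21 kept were lower and 2 higher, with a median of -0.42. Lower beside Egr2 was Ier5 (-1.88 ± 0.30), a heat shock factor coactivator. Gadd45b went the other way, with 234.5, 290.8 and 287.8 TPM in the lines and 55.5 and 48.3 in ESC XX (2.46 ± 0.17). Of the 10 AP-1 partners, Fosl2, a FOS relative, was lower (-2.24 ± 0.62) and Maff higher (1.12 ± 0.67), the latter under the bound without AOS-16 (0.82) or without 1 ESC XX library (0.98). Elk3, a ternary complex factor, was the 1 gene of 13 in the SRF and CREB list that was lower (-1.10 ± 0.16), and it was under the bound without A129-2 (-0.98). Srf itself was at 37.1, 19.7 and 23.6 TPM against 23.6 and 22.7.

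None of 12 genes of the MYC network met the bounds, and their median was -0.14. Of 18 MYC targets 1 was lower and none higher, with a median of -0.19. That gene was Ccnd2, cyclin D2, at 0.422, 0.987 and 3.46 TPM against 40.4 and 41.7 (-4.07 ± 0.85). Of the 10 ATF4 pathway genes Ddit4 was higher (2.30 ± 1.25) and none was lower, and the number higher was 3 without A129-2 or without AOS-14.

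The 3 lines also differed from each other, and A129-2 stood apart from the AOS lines in 6 of the 10 genes. Of the 10 genes 2 (Junb and Ier2) lay above the AOS lines in A129-2 and 4 (Fos, Fosb, Ier3 and Atf3) lay below them, by the same size and overlap rule (median of all genes, 0.20, removed). Over 13569 genes, 6.43% were higher and 7.84% lower. With 1 library per line these differences have no replicate check. The differences were 2.17 for Junb, 2.02 for Ier2, -1.30 for Fos, -1.38 for Fosb, -1.34 for Ier3 and -1.09 for Atf3. Jun (-0.25), Egr1 (0.47), Phlda1 (0.06) and Myc (0.72) stayed within 1.

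Junb and Ier2 both lie on chromosome 8 (GRCm38 annotation), and none of the other 8 genes does. Genes of chromosome 8 as a whole were higher in A129-2, with a median of 0.84 (interquartile range 0.40 to 1.18) over 700 genes, against -0.04 over 11708 genes of the other autosomes. By the size and overlap rule 36.7% of chromosome 8 genes were higher, against 4.08% on the other autosomes. Relative to that chromosome 8 median, Junb was still higher by 1.34 and Ier2 by 1.18, and they ranked 15 and 21 of the 700. Jund, a JUN family gene, and Klf2, a Kruppel-like factor of the pluripotency network, also lie there and were higher in A129-2 by 1.23 and 1.201, whereas Herpud1, an endoplasmic reticulum stress gene on the same chromosome, had a difference of -0.93. Zfp42 and the chaperone gene Dnajb1 lie there too. Zfp42 was at 649 TPM in A129-2 against 77.6 and 72.8 in AOS-14 and AOS-16. Dnajb1 was at 92.3 TPM against 35.9 and 34.9, and its difference was under the bound without AOS-16 (0.985). How far the chromosome accounts for the Junb and Ier2 values was not tested.

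Atf3 was lower in A129-2 together with 6 of the 10 ATF4 pathway genes, whose median was -1.25, and none of the 10 was higher. Ddit3, the stress factor CHOP, ran 23.9, 98.0 and 215.8 TPM in A129-2, AOS-14 and AOS-16, and Atf3 9.16, 11.3 and 28.0, the same order of lines. Without AOS-16 the Atf3 difference was -0.63 and under the bound, and it was also under the bound with no median removed (-0.89) and with no filter on low values (-0.99). The fibroblast markers also moved between lines, with 9 of 12 lower in A129-2 and none higher by the same rule (median -2.17). Vim and Pdgfrb leaned the other way. Vim was at 258 TPM in A129-2 against 97.1 and 169 for the AOS lines, and Pdgfrb at 2.75 against 1.12 and 1.37. The Vim difference was past the bound with no median removed (1.01) and without AOS-16 (1.05). Summed over the markers, A129-2 had 531 TPM, between the AOS lines (417 and 685 TPM). Most of that A129-2 sum was Vim and the matrix gene Fn1, the latter at 244 TPM against 183 and 311 in AOS-14 and AOS-16. The sum therefore says little about the markers that were lower in A129-2. The part of fibroblast RNA in the lower Fos, Fosb, Ier3 and Atf3 of A129-2 was not tested.

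Pair by pair, the lines were compared after the median difference of all genes was removed for each pair. On the log2(TPM + 1) scale, 5 of the 10 genes then differed at least 2-fold between A129-2 and AOS-14 (16.9% of all genes). Between A129-2 and AOS-16 there were 6 (15.7%). Between AOS-14 and AOS-16 none of the 10 did, against 8.15% of all genes. The closest to it were Atf3 (-0.97) and Egr1 (0.95), the former lower and the latter higher in AOS-14. Without the median removal Atf3 was past 2-fold, at 11.3 TPM in AOS-14 and 28.0 TPM in AOS-16.

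**Figure D4:**
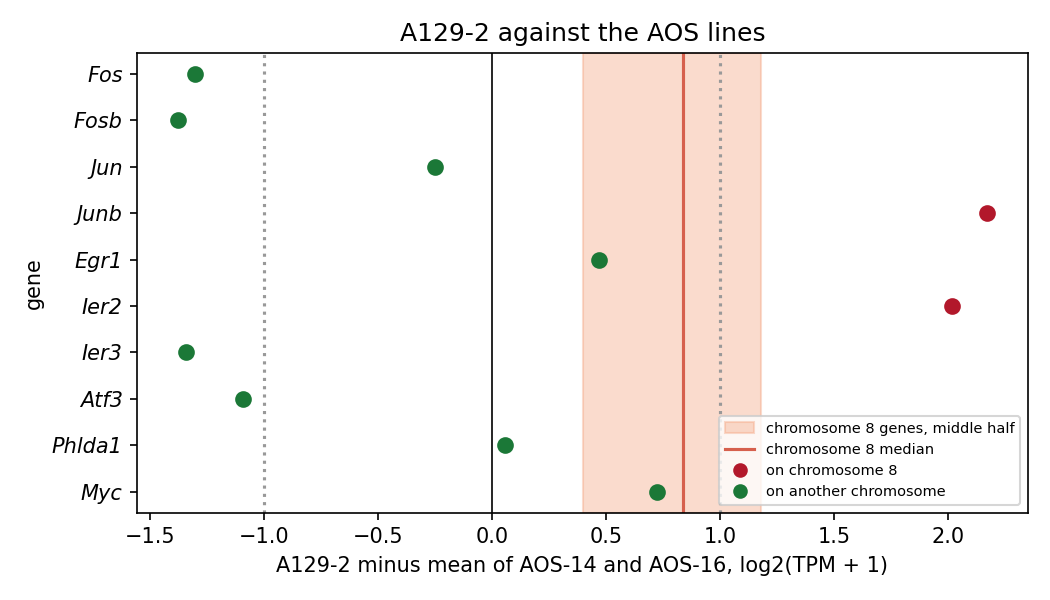
Difference between A129-2 and the mean of AOS-14 and AOS-16 on the log2(TPM + 1) scale, 1 point per gene, with the median and interquartile range of all chromosome 8 genes. Junb (2.17) and Ier2 (2.02), the genes on that chromosome, lie to the right of its interquartile range, while Fos, Fosb, Ier3 and Atf3 lie below -1.

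Round sperm and ESC XX had the lowest and the highest summed levels of the 10 genes. All 10 genes were lower in round sperm than in both ESC XX libraries, with differences from -2.93 in Jun to -6.78 in Egr1, where 34.9% of 16096 genes were lower by the same rule. This order of sizes holds with an added 1: with 0.1 the differences of Fos (-8.77), Ier2 (-8.30) and Myc (-7.41) passed that of Egr1 (-7.38), and all 10 genes were still lower. Phlda1 and Myc are listed at 0 in round sperm. Of the feeder fibroblast markers, 11 of 12 were also lower in round sperm (median -6.38, against -3.84 for the 10 genes), with a summed level of 12.9 TPM against 3715 and 3732, and their part was not tested. In TPM the order of levels was thus round sperm, then AG-haESCs, then ESC XX for Fos, Fosb, Jun, Egr1, Phlda1 and Myc. For Junb, Ier2, Ier3 and Atf3 round sperm was lowest, and AG-haESCs and ESC XX overlapped. The highest library was A129-2 for Junb and Ier2, and AOS-16 for Ier3 and Atf3. The step up from round sperm to AG-haESCs was not called for Fosb, Junb, Egr1 and Myc. For Fosb the deposited FPKM was 1.24 in A129-2 and 1.21 in round sperm. For Egr1 the step from round sperm (1.24 TPM) to AOS-16 (1.71 TPM) was smaller than the spread between lines, and it turned round in the deposited FPKM.

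The make-up of AP-1 transcripts differed between libraries. The ratio of Fos to Fosb in TPM was 14.3, 10.9 and 11.4 in A129-2, AOS-14 and AOS-16, 4.66 and 4.71 in ESC XX, and 0.0805 in round sperm. All 3 lines had a higher ratio than both ESC XX libraries. The ratio of Junb to Jun was 5.60 in A129-2 and 0.838 and 1.201 in the AOS lines, against 1.69 in each ESC XX library and 1.502 in round sperm. A129-2 was thus above ESC XX and the AOS lines below it.

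The genes most like Fos and Myc were sought among 11707 non-member genes that reached 10 TPM in at least 1 library, by Euclidean distance between log2(TPM + 1) profiles over the 6 libraries, each centred on its own mean. For Fos they were Ctsz (0.57), a lysosomal protease, Ooep (0.70), an oocyte and embryo protein, Rcn1 (0.77), a calcium-binding protein of the endoplasmic reticulum, Fhl1 (0.77), a LIM protein, and Ctsl (0.79), another lysosomal protease. For Myc they were Axl (0.52), a receptor tyrosine kinase, Efemp1 (0.64), a matrix glycoprotein, Mmp14 (0.72), a membrane metalloprotease, Acta1 (0.85), an actin, and Gm5662 (0.86). Axl, closest to Myc, was at 1.497, 0.746 and 1.17 TPM in the lines, 0.177 in round sperm and 31.6 and 31.1 in ESC XX. These distances over 6 libraries describe the libraries and carry no test.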

How the data were processed

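The deposited values are FPKM, made by the authors with TopHat2 2.0.13 and Cuffdiff 2.2.1 on mm9, per the submitters' processing notes; settings, strand use and scaling: not given in the sources used here. For these files the shared table of AG-haESCs and round sperm names no unit, and FPKM was inferred from the tool and the size of the values. ESC XX was deposited in 2 separate tables.

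AG-haESCs and round sperm were compared with limma 3.58.1 in R 4.3.3 (mean-variance trend) on log2(FPKM + 1), over genes that reached 1 FPKM in any of these 4 libraries, with Benjamini-Hochberg adjustment over all of them, two-sided. The method was run on simulated data, for genes at high FPKM in the lines and with the lines' spread given to round sperm. That run does not cover members at low FPKM. It makes the same assumption about the lone round sperm library, so it cannot check it. The other comparisons used TPM (each library rescaled to 1 total), genes reaching 1 TPM and no test. Transcript lengths (94.6% of symbols) and chromosomes came from GENCODE M21 (GRCm38), another build than mm9. Fragment numbers are approximate.

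Members and lists were chosen with earlier results of these data known. All 10 members are named, and from each pathway list up to 3 called genes with the largest difference per comparison. Some others were named after their values were seen (Srf, Mycl, Jund, Klf2, Klf4, Ddit3, Herpud1, Zfp42, Dnajb1, Col1a1, Lum, Vim, Pdgfrb, Fn1, Eef1a1). Alternatives changed the pseudocount, filter, scaling, median removal and libraries.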

Additional observations from a re-analysis of the deposited data

How the results depend on the processing

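Against round sperm, leaving out 1 AG-haESC line gave between 2 and 6 called members, against 6 with all lines: 2 without AOS-14 or without AOS-16 and 6 without A129-2. The other 6 settings (pseudocount 0.1, no filter, a filter at an FPKM of 5, rescaling to the same total with and without short genes, and quantile normalization) gave 5 or 6; at an FPKM of 5, 6 of the 10 members were tested. The share of all calls that were higher went from 36.8% as deposited to 52.1% after rescaling to the same total. Against ESC XX the count stayed between 4 and 6 members, between A129-2 and the AOS lines between 5 and 7, and between round sperm and ESC XX at 10, over the alternatives run. Of 295 single-gene values under an alternative, 272 stayed on their side of the threshold, 18 fell short of it, 5 newly passed it, and no called gene changed direction. Only with a pseudocount of 0.1 was Myc past the bound between A129-2 and the AOS lines (1.42). No paired analysis was possible because nothing in the labels pairs an AG-haESC line with a round sperm or ESC XX library. Depth limits the low values: Fos, Atf3 and Ier2 in round sperm rest on about 2, 3 and 5 fragments, and Myc in the lines on 11 to 21.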

Other observations

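Heat shock and chaperone genes, which respond to handling stress as immediate early genes do, were also followed. Against round sperm 4 of 10 rose and 2 fell, where 22.8% of all genes rose and 39.1% fell. After rescaling to the same total the counts were 6 and 0, so the lower calls depend on the scaling. As deposited, the small heat shock protein Hspb1 rose by 5.98 ± 0.21 (limma adjusted p = 0.000978), the constitutive chaperone Hspa8 by 5.56 ± 0.18 (adjusted p = 0.000900) and Hsp90ab1 by 4.78 ± 0.19 (adjusted p = 0.00127). Against ESC XX 2 of 10 met the bounds, both as lower: Hspa1b (-1.34 ± 0.52) and Hspa1a (-1.08 ± 0.57), the inducible HSP70 genes. Hspa1a was at 0.899, 0.825 and 2.68 TPM in A129-2, AOS-14 and AOS-16 against 4.51 and 4.13 in ESC XX, and fell under the bound without A129-2 (-0.85) or AOS-14 (-0.996). These 2 genes are near-identical copies, so how reads were split between them is not given, and their single values are uncertain.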
